A study of Mus musculus with 3 samples.

Results

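The 9 genes described here encode heat shock proteins and the related lens and glial protein alpha-B crystallin. They are Cryab, Hspb1, Hspa1a, Hspa1b, Hspa8, Hspa5, Hsp90aa1, Hsph1 and Dnajb1, chosen by name from the 18478 genes of the deposited count table. All 9 were measured in each of 3 single-cell RNA-seq runs of Müller glia, the radial support cells of the retina. The adult mice carried 1 copy of each of 3 transgenes (+/tg): Glast-CreERT2 (given as Glast-CreERT in the sample labels), Yap5SA and ROSA26R-tdTomato. Glast-CreERT2 is a recombinase made under the control of the Glast gene and switched on by tamoxifen, Yap5SA is a mutated and persistently active form of the Hippo pathway effector YAP, and tdTomato is a red fluorescent reporter. Mice received tamoxifen and then NMDA, a glutamate receptor agonist that damages retinal neurons, and 2 days later the tdTomato+ cells were sorted and loaded on the 10X Chromium 3′ v2 platform. All 3 runs share this genotype and injury, so there is no control genotype or uninjured group, and every comparison is between classes of cells within the same runs. Glast is active in Müller glia and also in astrocytes, so the driver and the reporter do not separate these cell types. The labels do not say whether the runs came from separate animals, so each p-value measures only the spread between these 3 runs, which may be technical.

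Heat shock proteins are molecular chaperones, which bind unfolded stretches of other proteins and help them fold, refold or be degraded. Small heat shock proteins such as alpha-B crystallin (Cryab) and Hsp27 (Hspb1) hold unfolding proteins without using ATP. Hsp70 proteins (Hspa8, always present, Hspa1a and Hspa1b, made on stress, and Hspa5, in the endoplasmic reticulum) and Hsp90 (Hsp90aa1) use ATP, J-domain proteins such as Dnajb1 load clients on Hsp70, and Hsp110 (Hsph1) releases ADP from it. Heat shock factor 1 switches on the stress-made genes, whereas Hspa5 belongs to the unfolded protein response of the endoplasmic reticulum. Müller glia are known for alpha-B crystallin, which they make more of after retinal injury.

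The promoters are shown first. Members with a window in the RefSeq promoter table differ in the elements they carry, and whether these bear on the levels below was not tested. RefSeq (GRCm38.p6) gave the 250 bases before the transcription start of 6 of the 9 members, 5′ to 3′ on the gene's strand. The window of Hspb1 was chr5:135887669-135887918 on the plus strand, that of Hspa1a chr17:34972157-34972406 on the minus strand, that of Hspa5 chr2:34771840-34772089 on the plus strand and that of Hsph1 chr5:149636337-149636586 on the minus strand. Capitals mark matches to GAANNTTC or TTCNNGAA, a pair of the inverted repeats that heat shock factors bind. In Hspa5, capitals mark instead the endoplasmic reticulum stress element (CCAAT, then 9 bases of any kind, then CCACG) and the AP-1 motif TGANTCA.
Hspb1: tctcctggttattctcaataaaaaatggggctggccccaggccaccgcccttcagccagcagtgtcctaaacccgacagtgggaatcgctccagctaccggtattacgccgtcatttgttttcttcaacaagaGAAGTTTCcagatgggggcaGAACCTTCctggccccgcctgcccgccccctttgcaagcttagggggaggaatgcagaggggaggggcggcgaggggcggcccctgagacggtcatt
Hspa1a: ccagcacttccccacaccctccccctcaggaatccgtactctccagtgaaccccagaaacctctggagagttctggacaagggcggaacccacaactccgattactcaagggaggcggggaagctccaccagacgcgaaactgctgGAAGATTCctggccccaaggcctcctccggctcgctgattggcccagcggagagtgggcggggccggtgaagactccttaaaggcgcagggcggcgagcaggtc
Hspa5: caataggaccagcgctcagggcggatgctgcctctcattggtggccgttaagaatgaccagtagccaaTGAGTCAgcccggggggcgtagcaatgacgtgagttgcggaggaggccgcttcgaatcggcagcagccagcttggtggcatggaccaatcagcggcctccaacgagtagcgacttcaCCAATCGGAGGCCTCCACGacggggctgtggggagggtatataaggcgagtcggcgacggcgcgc
Hsph1: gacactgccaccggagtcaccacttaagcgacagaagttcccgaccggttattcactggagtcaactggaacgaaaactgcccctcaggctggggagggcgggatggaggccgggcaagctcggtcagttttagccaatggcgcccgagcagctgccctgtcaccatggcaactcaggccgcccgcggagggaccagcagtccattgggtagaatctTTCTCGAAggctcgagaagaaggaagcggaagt
Hspb1 had GAAGTTTC from 117 bases and GAACCTTC from 97 bases before the start, Hspa1a had GAAGATTC from 104 bases, and Hsph1 had TTCTCGAA from 33 bases. The Hspa1b window (chr17:34959239-34959488, minus strand) was 98.8% identical to that of Hspa1a. It carried 3 substitutions, C44T, T47C and T249G, counted from 1 at the window's 5′ end with the base of Hspa1a first, and the same GAAGATTC from 104 bases. Both strands were searched, and matches to different motifs were counted separately even where they overlap. A GAANNTTC or TTCNNGAA pair stood in 12.84% of all 32851 promoter windows and in 4 of these 6 members. The endoplasmic reticulum stress element in Hspa5, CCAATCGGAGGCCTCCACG from 65 bases before the start, stood in 37 of the 32851 windows. Of the 17 other endoplasmic reticulum genes listed for comparison that had a window, 7 carried it (Calr, Canx, Creld2, Dnajc3, Hsp90b1, Pdia6 and Syvn1). The AP-1 motif, TGAGTCA from 182 bases before the start of Hspa5, stood in 6.749% of windows. The window of Dnajb1 held none of the 5 motifs searched, of which the fifth was TGACGTCA, the cyclic AMP response element (1.546% of windows and none of the members). A match describes letters only, no binding was measured here, and the GENCODE models of Hspa5 and Hsph1 start inside their RefSeq windows.

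In mm10 with GENCODE M21, Cryab lies at chr9:50751325-50756636 (plus strand), Hspa8 at chr9:40800984-40810087 (plus), Hsp90aa1 at chr12:110690605-110702728 (minus) and Dnajb1 at chr8:83608193-83612653 (plus). Hspb1 lies at chr5:135887919-135889563 (plus), Hsph1 at chr5:149614287-149636376 (minus) and Hspa5 at chr2:34771970-34777547 (plus). Hspa1a (chr17:34969190-34972156) and Hspa1b (chr17:34956436-34959238) lie 9951 bases apart on the minus strand of chromosome 17. Their transcripts shared no 50-base stretch in the last 500 bases, where 3′ libraries read, but shared 1716 such stretches over their whole length. Reads that lie within these shared stretches do not tell the genes apart. Cryab overlaps Hspb2, and Hspa1a overlaps Gm20481, each on the opposite strand. Whether reads were counted by strand is not given in the sources used here, and Hspb2 itself was at 10.2, 11.3 and 11.6 CPM (UMIs of a gene for each 1000000 counted in the run).

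The 3 runs held 24695 cells, of which 24672 had at least 500 genes and at most 20% mitochondrial counts. The runs held 94858762 to 122888236 unique molecular identifiers (UMIs, each 1 counted RNA molecule), with medians of 9407 to 11200.5 per cell, and 83 to 108 cell barcodes were shared between each pair of runs. Igfbp2-high cells had at least 5 UMIs of Igfbp2 per 10000 (6520 cells) and Igfbp2-low cells under 1 (15054 cells). Cycling cells had at least 2 UMIs of Top2a, Mki67, Cdk1 and Ccnb1 summed (5596 cells, against 19076 non-cycling). The authors' processed table held 13511 of the cells, and how they chose them is not given in the sources used here. The Igfbp2 and cycling classes overlap: 76.089% of Igfbp2-high and 1.8998% of Igfbp2-low cells were cycling. Median depth differed with them, at 19952 against 9275.5 UMIs for Igfbp2 and 21522 against 9232 for cycling, and a fixed number of UMIs in the cycling rule picks deeper cells more easily. The label was checked on 10 Müller glia markers, which summed to 22620, 19029 and 19685 CPM in Igfbp2-low and to 5674, 4643 and 4515 in Igfbp2-high cells. All 10 were present, and all 10 were lower in Igfbp2-high cells (edgeR, adjusted p under 0.05).

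CPM were taken over the summed UMIs of all cells of a class in a run. They are shares of the RNA counted in a class, and since 3′ UMIs are not scaled to length the genes are not ranked against each other. Over all cells Cryab stood at 3040, 2916 and 2843 CPM in runs 1, 2 and 3 (2932.5 ± 99.6, SD, n = 3), and Hspa8 at 1581, 1572 and 1620 (1591 ± 25.5). Hsp90aa1 was at 1098, 1338 and 1155 CPM, Hspa5 at 306, 390 and 368, and Hsph1 at 56.7, 61.3 and 65.7. These 5 genes kept within a narrow band from run to run. Among the stress-made genes, Hspa1a was at 229, 344 and 254 CPM, Hspb1 at 46.3, 71.2 and 55.6, and Hspa1b at 10.7, 16.9 and 13.7, each highest in run 2 and lowest in run 1. Dnajb1 differed most between runs of the 9, at 144, 290 and 593 CPM, with run 3 far above run 1. Each cell-class comparison below was therefore fitted with the run as a block.

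Cryab, the constitutive and endoplasmic reticulum Hsp70s, Hsp90 and Hsp110 took a larger share of the RNA in Igfbp2-high than in Igfbp2-low cells, and Hspb1, Hspa1a and Hspa1b a smaller share. In UMIs per cell Hspa1a and Hspa1b were not lower in any run, and Hspb1 went opposite ways between runs. Of the 9 members, 5 were higher (Hspa5, Hsp90aa1, Hspa8, Cryab and Hsph1), 3 were lower (Hspb1, Hspa1b and Hspa1a) and Dnajb1 was not called, by edgeR's quasi-likelihood test on counts summed per class and run with a Benjamini-Hochberg adjusted p under 0.05. The same test called 80.6% of the 15094 genes tested, 39.4% higher and 41.2% lower, so 8 of 9 is close to the background and the sizes and directions carry the description.

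Hspa5 (BiP), the Hsp70 of the endoplasmic reticulum, was at 445, 609 and 576 CPM in Igfbp2-high and 194, 219 and 209 in Igfbp2-low cells. Every high value lay above every low value, and the log2 difference of 1.44 ± 0.06 (SE, edgeR, adjusted p = 2.34e-07) was the largest among the members. Hsp90aa1, the stress-responsive cytosolic Hsp90, was at 1471, 1827 and 1553 against 791, 958 and 844 CPM, a log2 difference of 0.96 ± 0.05 (adjusted p = 1.41e-06). Hspa8, the constitutive Hsp70, was at 2036, 2118 and 2170 against 1207, 1143 and 1186 CPM, a log2 difference of 0.90 ± 0.05 (adjusted p = 1.94e-06). Neither gene's classes overlapped, and the 3 runs agreed closely, with ratios of 1.84 to 1.91 for Hsp90aa1 and 1.69 to 1.85 for Hspa8. Cryab was at 4114, 3698 and 3717 against 2114, 2264 and 2120 CPM (log2 difference 0.89 ± 0.08, adjusted p = 1.52e-05), again with no overlap. Hsph1, the Hsp110 that recharges Hsp70, showed the smallest of the called increases, from 46.9, 52.5 and 56.8 to 68.8, 72.7 and 77.5 CPM (log2 difference 0.55 ± 0.05, adjusted p = 3.12e-05).

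Hspb1, the small heat shock protein Hsp27, went the other way from its relative Cryab. It was at 24.5, 44.6 and 41.4 CPM in Igfbp2-high and 65.7, 94.3 and 64.4 in Igfbp2-low cells, lower in every run and without overlap (log2 difference -0.98 ± 0.11, adjusted p = 8.75e-05, edgeR). Hspa1a was at 178, 288 and 230 against 275, 397 and 276 CPM (log2 difference -0.39 ± 0.06, adjusted p = 0.00057). Its classes overlapped across runs, since run 2 was high in both, but within each run the Igfbp2-high value was the lower. Hspa1b was at 8.81, 14.3 and 10.1 against 12.5, 19.1 and 16.7 CPM (log2 difference -0.49 ± 0.08, adjusted p = 0.000693) and also overlapped. Without the run as a block, Hspa1a and Hspa1b were not called (adjusted p = 0.15 and 0.0986). Igfbp2-high cells held more UMIs, and in UMIs per cell the median of all genes shifts by 0.96 on the log2 scale. There the ratios of Igfbp2-high to Igfbp2-low cells were 1.33, 1.46 and 1.83 for Hspa1a in runs 1, 2 and 3 and 1.45, 1.51 and 1.33 for Hspa1b. For Hspb1 they were 0.766, 0.956 and 1.41, below 1 in runs 1 and 2 and above it in run 3 (fitted log2 difference 0.019). On that scale 84.707% of the called genes were higher, against 48.887% as shares, so the calls of these 3 genes as lower are about shares of the RNA.

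Dnajb1, the stress-made J-protein, had no common direction. It was at 170, 267 and 429 CPM in Igfbp2-high and 120, 309 and 725 in Igfbp2-low cells, so the ratio was 1.42 in run 1, 0.865 in run 2 and 0.592 in run 3. The log2 difference was -0.10 ± 0.21 (edgeR, adjusted p = 0.673). Without run 1 it was called lower (-0.45, adjusted p = 0.00375), and without run 3 its sign turned (0.22).

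**Figure D1:**
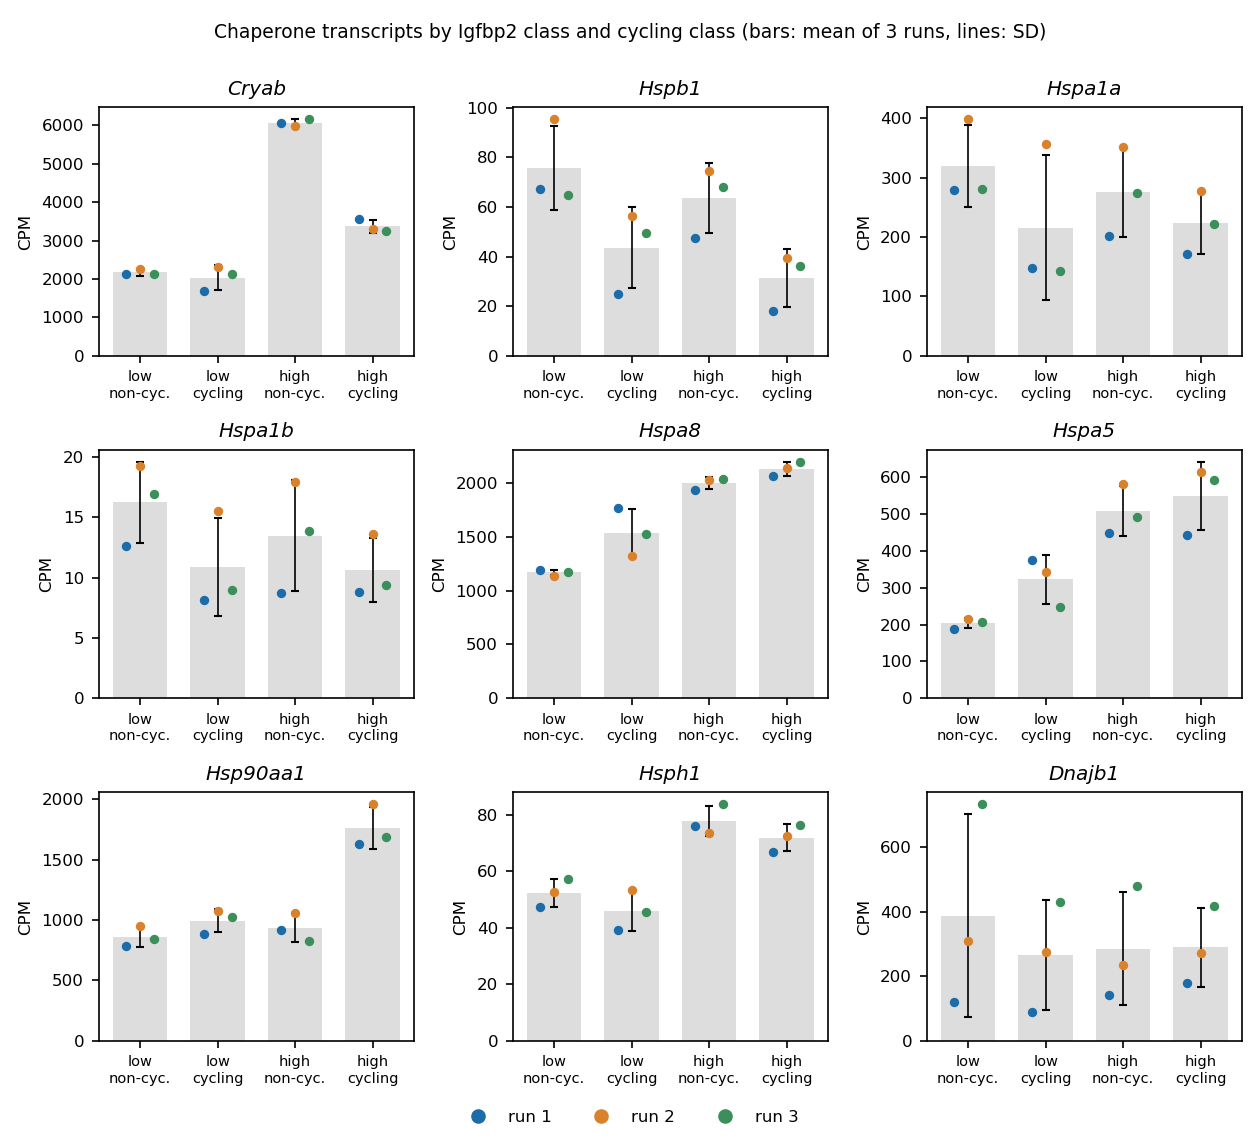
Level of each of the 9 genes (CPM, y axis, starting at 0) in 4 classes of cells: Igfbp2-low and Igfbp2-high, each non-cycling and cycling. Bars are means of 3 runs, lines the SD and points the runs. Cryab stands highest in Igfbp2-high non-cycling cells (5992 to 6163 CPM) and Hsp90aa1 in Igfbp2-high cycling cells (1630 to 1959 CPM), and Dnajb1 shows the widest spread between runs.

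In cycling cells 5 members were higher (Hspa5, Hsp90aa1, Hspa8, Hsph1 and Cryab) and 3 lower (Hspb1, Hspa1b and Hspa1a), and in UMIs per cell none of these 3 was called lower. On that scale Hspb1 had ratios of 0.630, 0.930 and 1.26 in the 3 runs (fitted log2 difference -0.14, adjusted p = 0.275, edgeR), and Hspa1a and Hspa1b were higher in each run. Without the run block Hspa1a and Hspa1b were not called (adjusted p = 0.113 and 0.0791). Of the cycling cells 88.653% were Igfbp2-high. The test called 80.3% of 15287 genes, 39.0% higher and 41.3% lower, close to the share of members. Hspa5 had a log2 difference of 1.17 ± 0.06 (edgeR, adjusted p = 4.98e-07), Hsp90aa1 of 1.02 ± 0.04 (adjusted p = 1.04e-07) and Hspa8 of 0.76 ± 0.04 (adjusted p = 7.63e-07). Hspb1 had the largest decrease, at -1.19 ± 0.13 (adjusted p = 4.44e-05). Hspa1b was at -0.55 ± 0.09 (adjusted p = 0.00071), Hspa1a at -0.45 ± 0.05 (adjusted p = 5.03e-05) and Hsph1 at 0.39 ± 0.04 (adjusted p = 5.34e-05). Cryab was higher by only 0.33 ± 0.04 (adjusted p = 0.0001), and among cells of the processed table alone it was not called (0.04, adjusted p = 0.448). Dnajb1 was again not called (-0.12 ± 0.19, adjusted p = 0.568) and was called lower without run 1 (-0.43, adjusted p = 0.0101). To part Igfbp2 from cycling, the 4 combined classes were compared.

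Cryab was highest in Igfbp2-high cells outside the cell cycle, and lower both in dividing Igfbp2-high cells and in Igfbp2-low cells. The levels in runs 1, 2 and 3 were 6062, 5992 and 6163 CPM in Igfbp2-high non-cycling cells (1559 cells) and 3555, 3303 and 3252 in Igfbp2-high cycling cells (4961 cells). In Igfbp2-low non-cycling cells (14768 cells) they were 2128, 2263 and 2120, and in Igfbp2-low cycling cells (286 cells) 1676, 2321 and 2119. The ranges of the Igfbp2-high classes overlapped neither each other nor the Igfbp2-low classes, which overlapped each other. Among non-cycling cells Cryab was higher with Igfbp2 by 1.55 ± 0.06 on the log2 scale (edgeR, adjusted p = 1.58e-10). Within Igfbp2-high cells it was lower in cycling cells (log2 difference -0.86 ± 0.03, adjusted p = 6.89e-13). These directions and calls held in all 13 alternatives run for each, with log2 differences from 1.35 to 2.11 and from -1.06 to -0.28. The comparisons of all cells above average over these classes.

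The summed astrocyte marker list was also highest in Igfbp2-high non-cycling cells, and it was lowest in Igfbp2-high cycling cells of the 3 classes compared here. Its summed level was 1412, 1545 and 1543 CPM in Igfbp2-high non-cycling, 1135, 916 and 790 in Igfbp2-low non-cycling and 147, 136 and 99.1 in Igfbp2-high cycling cells. In Igfbp2-low non-cycling cells the sum mainly follows Gfap and Aldh1l1. Their mean log2 CPM there was 9.59 and 7.23, against 3.30 for S100b and 2.98 for Igfbp5. Of the list's 7 genes, 6 were higher and 1 lower in the non-cycling comparison (median log2 difference 4.16). Among the higher was the defining astrocyte factor Pax2, at 14.2, 23.1 and 21.0 CPM against at most 0.150. When 275 cells with UMIs of microglia, vascular or Pax2 markers were set aside, the difference of Cryab was 1.64 in non-cycling cells and -0.96 with cycling in Igfbp2-high cells. This left 578, 429 and 433 of the 613, 476 and 470 Igfbp2-high non-cycling cells in runs 1, 2 and 3. The rule needed 2 UMIs of Pax2, a sparse gene, so astrocytes can fall short of it. The astrocyte list was not measured again after this step, and the part of astrocytes in the Cryab difference was not tested. The lens crystallin Cryaa, a partner of Cryab in lens fibres, was at no more than 0.0326 CPM in any run. The 9 measured genes of the lens list summed to 20.4, 19.5 and 19.3 CPM in Igfbp2-high and 54.1, 48.8 and 65.7 in Igfbp2-low cells. Crygs, listed as a lens crystallin, was the exception, at 24.0, 24.8 and 22.9 CPM in Igfbp2-high non-cycling against 2.15, 3.41 and 1.78 in Igfbp2-low non-cycling cells.

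Among single cells Cryab formed a broad range. After each cell was thinned to 3500 UMIs, the median cell held 8, 8 and 7 Cryab UMIs in the 3 runs, and the 90th percentile was 18, 17 and 17. In Igfbp2-high cells the medians were 13, 12 and 12 and the 90th percentiles 29, 24 and 26, while Igfbp2-low medians were 7, 7 and 6. The intermediate cells (3098 cells, from 1 to under 5 UMIs of Igfbp2 per 10000) lay between, at 2544, 2684 and 2722 CPM of Cryab.

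**Figure D2:**
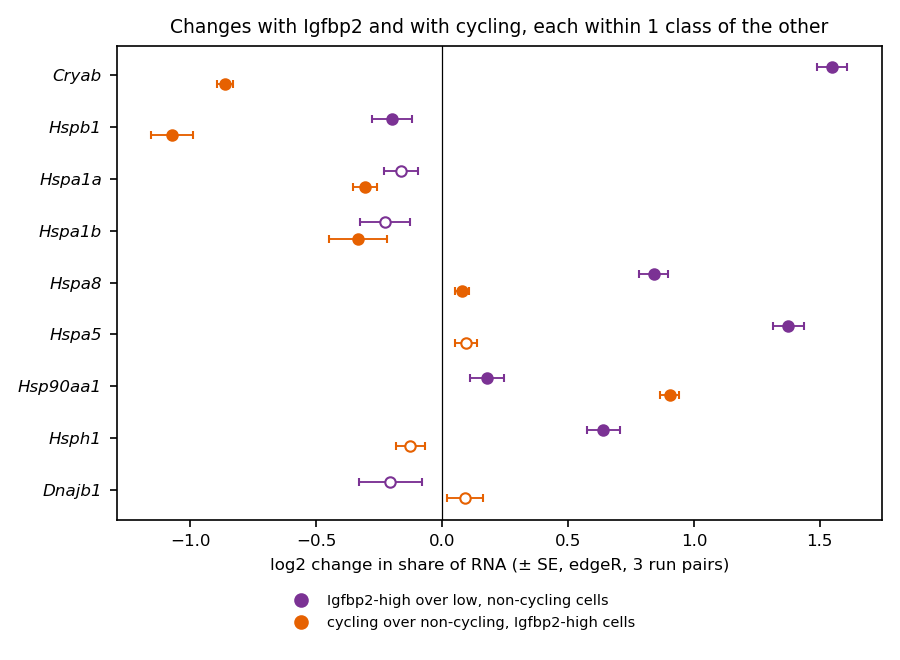
Log2 difference (± SE) of each gene between Igfbp2-high and Igfbp2-low non-cycling cells and between cycling and non-cycling Igfbp2-high cells, over 3 runs. Filled points have an edgeR adjusted p under 0.05. Cryab has opposite signs (1.55 and -0.86), Hspa5 lies at 1.38 and 0.10, and Hsp90aa1 at 0.18 and 0.90.

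With cycling cells set aside, 5 members were higher in Igfbp2-high cells and 1 (Hspb1) was lower, as shares of the RNA. That test on shares called 64.9% of 14292 genes (32.0% higher, 32.9% lower). Hspb1 was not lower in UMIs per cell, where 83.27% of the called genes were higher. Within Igfbp2-high cells, 2 members were higher in cycling cells and 4 were lower, again as shares. The test on shares called 57.8% of 13623 genes there (28.8% higher, 29.1% lower). Of those 4, Hspa1a and Hspa1b were not lower in UMIs per cell, where 89.269% of the called genes were higher. Both shares of members are near those of all genes.

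In Igfbp2-high cells Hsp90aa1 was at 1630, 1959 and 1691 CPM when cycling and 917, 1059 and 824 when not, with every cycling value above every non-cycling one (log2 difference 0.90 ± 0.04, edgeR, adjusted p = 2.43e-12). This call held in all 13 alternatives, from 0.75 to 1.49. Igfbp2-low cells gave 886, 1076 and 1025 CPM when cycling and 788, 954 and 839 when not. These ranges overlapped, but within each run the cycling value was the higher, by ratios of 1.12, 1.13 and 1.22, against 1.78, 1.85 and 2.05 in Igfbp2-high cells. Among non-cycling cells the difference with Igfbp2 was 0.18 ± 0.07 (adjusted p = 0.0332), the classes overlapped, and this call was lost without run 1 (0.099, adjusted p = 0.146) or run 2 (0.16, adjusted p = 0.199).

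Hspa8, Hspa5 and Hsph1 were higher with Igfbp2 among non-cycling cells. Hspa8 was at 1938, 2027 and 2036 CPM in Igfbp2-high non-cycling and 1189, 1138 and 1176 in Igfbp2-low non-cycling cells (log2 difference 0.84 ± 0.06, edgeR, adjusted p = 2.90e-08), and Igfbp2-high cycling cells lay at 2065, 2134 and 2195. The small difference with cycling in Igfbp2-high cells (0.08 ± 0.03, adjusted p = 0.0311) was not called in 6 and turned sign in 3 more of 13 alternatives. Hspa5 was at 447, 581 and 493 against 188, 215 and 208 CPM in the non-cycling classes (1.38 ± 0.06, adjusted p = 6.20e-10), with no overlap. Igfbp2-high cycling cells, at 444, 614 and 591 CPM of Hspa5, overlapped the non-cycling ones fully (0.10 ± 0.04, adjusted p = 0.0714). Hsph1 was at 75.9, 73.6 and 83.7 against 47.2, 52.5 and 57.1 CPM in non-cycling cells (0.64 ± 0.07, adjusted p = 1.75e-06), and cycling Igfbp2-high cells overlapped the non-cycling at 66.8, 72.5 and 76.3 (-0.13 ± 0.06, adjusted p = 0.0685).

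As a share of the RNA, Hspb1 was lowest in cycling cells. In Igfbp2-high cells it was at 17.9, 39.5 and 36.4 CPM when cycling and 47.6, 74.6 and 68.2 when not, without overlap and lower in each run (log2 difference -1.07 ± 0.08, edgeR, adjusted p = 9.81e-09). In Igfbp2-low cells it was at 25.1, 56.2 and 49.4 when cycling (88 to 105 cells per run) and 67.1, 95.4 and 64.8 when not, also without overlap. In UMIs per cell the cycling to non-cycling ratios of Hspb1 were 0.572, 0.863 and 1.295 in Igfbp2-low cells, above 1 in run 3. In Igfbp2-high cells they were 0.538, 0.780 and 0.832. Among non-cycling cells the Igfbp2 classes overlapped, and the difference of -0.20 ± 0.08 (adjusted p = 0.046) was not called without run 1 (adjusted p = 0.311) or run 2 (adjusted p = 0.235). Hspa1a was at 172, 277 and 222 CPM in Igfbp2-high cycling and 201, 352 and 274 in Igfbp2-high non-cycling cells, lower in each run although the ranges overlapped (-0.31 ± 0.05, adjusted p = 2.89e-05). Hspa1b was lower (-0.33 ± 0.12, adjusted p = 0.0202), a call lost in 6 of 13 alternatives, and its sign turned in UMIs per cell (0.25). With Igfbp2 in non-cycling cells, Hspa1a (-0.16 ± 0.07, adjusted p = 0.052) and Hspa1b (-0.23 ± 0.10, adjusted p = 0.0598) were not called. Dnajb1 passed neither test (-0.21 ± 0.13, adjusted p = 0.166, and 0.09 ± 0.07, adjusted p = 0.295), and without run 1 the first was called (-0.47, adjusted p = 0.000275).

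Whether cycling went with a different change in Igfbp2-high than in Igfbp2-low cells was tested as an interaction, which called 14.5% of 14834 genes (7.97% higher, 6.55% lower) and 2 of the 9 members. Cryab had an interaction of -0.68 ± 0.13 on the log2 scale (edgeR, adjusted p = 0.00351) and Hsp90aa1 of 0.78 ± 0.11 (adjusted p = 0.000422). The Igfbp2-low cycling class behind it is thin, with 88 to 105 cells per run. Its summed microglia markers stood at 4629, 1383 and 241 CPM, against 141, 32.1 and 17.6 in Igfbp2-low non-cycling cells. Without the 275 cells of other markers, a rule added after seeing the data, both interactions were still called (Cryab -0.97, adjusted p = 3.77e-06, and Hsp90aa1 0.58, adjusted p = 0.000776). Both calls were lost when cells were thinned to 3500 UMIs before cycling was set. The Cryab call was also lost without run 2. That of Hsp90aa1 was also lost without the 17836 cells that held at least 3 UMIs of another cell type's markers.

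A few cells held very high levels of the stress-made pair Hspa1a and Hspb1. In 307 cells (65, 146 and 96 in the 3 runs) the genes summed to at least 20 UMIs per 10000, and in 4 of these to at least 100. In 1 cell of run 2 with 6093 UMIs, 724 were Hspb1 and 764 Hspa1a, together 24.421% of its RNA counts. The others held 245 and 509 of 10433 UMIs (run 2), 222 and 206 of 6571 (run 1), and 42 and 89 of 8519 (run 1), and run 3 had none. Those of run 2 were in the processed table and those of run 1 were not. Over the runs these 4 cells gave 6.653% of Hspb1, 1.77% of Hspa1a and 0.1639% of Dnajb1 UMIs. Within single runs the share was 11.07% for Hspb1 and 3.01% for Hspa1a in run 2, and 6.005% and 1.358% in run 1. Without them the Hspb1 difference with Igfbp2 in non-cycling cells was not called (-0.11, adjusted p = 0.263). Doublets and free RNA were not called or removed.

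**Figure D3:**
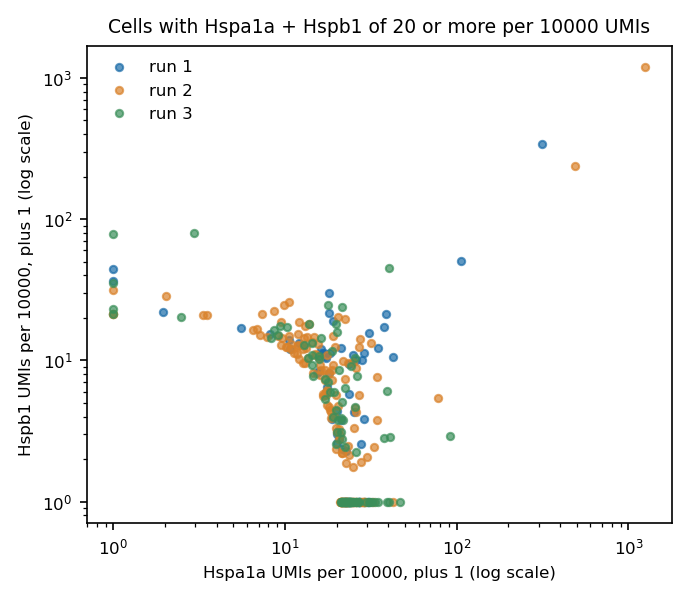
Hspa1a against Hspb1 in the 307 cells where both genes sum to at least 20 UMIs per 10000, as UMIs per 10000 plus 1 on log axes, coloured by run. Among the 4 cells of at least 100, 2 from run 1 and 2 from run 2, the 3 highest (651 to 2442) lie apart at the upper right, and the fourth (154) lies nearer the rest (up to 91.6).

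Dnajb1 moved with the immediate early genes, which switch on within minutes of many stimuli and of tissue dissociation. The 16 listed immediate early genes summed to 6079, 7598 and 12289 CPM in runs 1, 2 and 3, in the same order as Dnajb1 (144, 290 and 593). Igfbp2-low non-cycling cells were thinned to 3500 UMIs and parted within each run into 3 equal groups by their summed immediate early UMIs. From the group with the fewest to that with the most, Dnajb1 went from 69.1 through 104 to 192 CPM in run 1, from 157 through 241 to 574 in run 2, and from 241 through 622 to 1400 in run 3. It was higher at each step in each run, by ratios of 2.78, 3.66 and 5.80 from end to end. Hspb1 had ratios of 1.20 to 1.26, Hspa1a of 0.749 to 1.43 and the other members of 0.76 to 1.08, so Dnajb1 stood apart from the other stress-made members in this split, which is a description of cells with no test. Whether the immediate early RNA arose in the eye or during dissociation and sorting cannot be told apart in these runs.

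**Figure D4:**
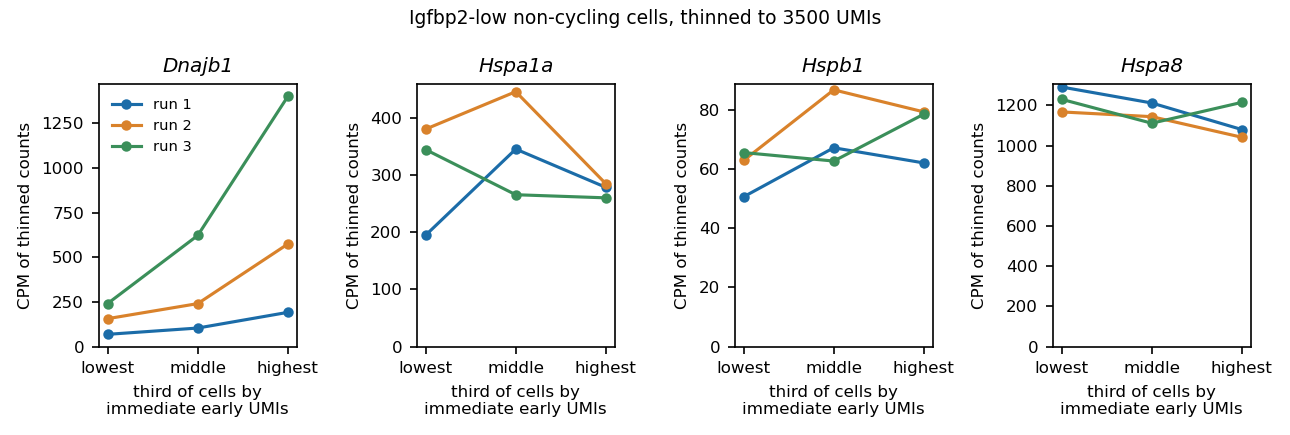
Level (CPM after thinning to 3500 UMIs) of Dnajb1, Hspa1a, Hspb1 and Hspa8 in 3 equal groups of Igfbp2-low non-cycling cells ordered by immediate early UMIs, 1 line per run. Dnajb1 climbs in each run, to 192, 574 and 1400 CPM, and the other genes do not climb with it to the same extent.

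Across cells thinned to the same 3500 UMIs the members had few close partners, and a Pearson correlation of ln(1 + count), averaged over the 3 runs, is given as a description. All values share libraries and cells, and 2891 genes of at least 50 CPM were compared. Cryab was most like S100a6 (r = 0.432) and S100a11 (0.404), calcium-binding proteins, and then Igfbp2 (0.382). Hspa8 was most like Igfbp2 (0.355), the tubulin Tuba1b (0.321) and Cnn2 (0.310), and Hspa5 like Igfbp2 (0.367), the endoplasmic reticulum disulphide isomerase Pdia6 (0.308) and the tropomyosin Tpm1 (0.305). Hsp90aa1 was most like genes of dividing cells, Pbk (0.345), the ribonucleotide reductase subunit Rrm2 (0.337) and the histone H2afz (0.336). Dnajb1 was most like the immediate early genes Junb (0.257), Jun (0.250) and Ier2 (0.241), and its value with Junb was 0.104, 0.250 and 0.416 in runs 1, 2 and 3. Hspb1, Hspa1a and Hsph1 had no partner of 0.2 or more. Hspa1b, under 50 CPM, was not compared. Among the other 8 members only the pairs of Hspa8 with Hsp90aa1 (0.227) and with Hspa5 (0.223) passed 0.2.

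The other chaperones of these cells were read from 5 lists, chosen with results of these data known. The Igfbp2 comparison called 39.4% of all 15094 tested genes higher and 41.2% lower, and their median log2 difference was -0.04. In it, the 7 tested subunits of the TRiC chaperonin, which folds actin and tubulin, were all higher (median 1.07). Tcp1 was higher by 1.44 ± 0.05 and Cct7 by 1.19 ± 0.05. Of 8 mitochondrial chaperones 7 were higher and none lower (median 0.64), among them Hspd1 (Hsp60) by 1.68 ± 0.05 and its partner Hspe1 by 1.46 ± 0.07. Of 20 endoplasmic reticulum genes 15 were higher and 4 lower (median 0.91), with Pdia6 at 1.98 ± 0.08, Hsp90b1, the Hsp90 of the endoplasmic reticulum, at 1.82 ± 0.06 and the calcium-binding chaperone Calr at 1.45 ± 0.07. The transcription factors Ddit3 (-1.44) and Xbp1 (-0.58) of that list were lower.

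Of 18 tested co-chaperones and heat shock factors 14 were higher and 2 lower (median 0.63), with the Hsp90 co-chaperone Ptges3 (p23) at 1.52 ± 0.05 and the chaperone-linked ubiquitin ligase Stub1 (CHIP) at 0.96 ± 0.05. Hsbp1, a binding partner of heat shock factor 1, was lower, at -0.33 ± 0.05. The 20 other cytosolic heat shock chaperones were split, 9 higher and 7 lower (median 0.12). Hsp90ab1, the constitutive Hsp90, was higher by 0.66 ± 0.06, the J-proteins Dnaja1 (-0.16 ± 0.05) and Dnaja2 (0.45 ± 0.05) went opposite ways, and the small heat shock protein Hspb6 was at -2.59. Of 16 immediate early genes, 15 were lower and 1 higher (median -1.62), among them Junb (-2.26), Btg2 (-2.20) and Fos (-1.56). Each named value was called by edgeR (adjusted p under 0.05). Among non-cycling cells alone, Hspb6 was again lower with Igfbp2 (-2.53 ± 0.09). The small heat shock proteins Hspb2 (1.40 ± 0.10) and Hspb8 (1.34 ± 0.14) were higher there, and the test called all of these. In cycling Igfbp2-high cells against non-cycling ones, 28.8% of all 13623 tested genes were called higher and 29.1% lower. There the TRiC subunits were again all higher (7 of 7, median 0.47), while the endoplasmic reticulum list was split (6 higher, 5 lower, median 0.03). In UMIs per cell all genes shift up by about 0.96 in the Igfbp2 comparison, so Dnaja1, Hsbp1 and Xbp1 are lower there as shares of the RNA.

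Cells in the processed table differed from those absent from it in 7 members, 5 higher and 2 lower, where the test called 64.2% of 15179 genes (32.9% higher, 31.3% lower). Hspa5 had a log2 difference of 0.77 ± 0.08 (edgeR, adjusted p = 0.000428). Cryab was at 3431, 3206 and 3218 CPM in cells of the table and 2450, 2373 and 2217 in absent ones (0.56 ± 0.04, adjusted p = 0.000117), without overlap. Hspa8 (0.54 ± 0.04), Hsph1 (0.39 ± 0.04) and Hsp90aa1 (0.37 ± 0.05) were also higher. Hspb1 was at 28.4, 67.8 and 46.7 against 73.4, 77.6 and 70.4 CPM (-0.63 ± 0.20, adjusted p = 0.0329) and Hspa1b was lower (-0.25 ± 0.08, adjusted p = 0.0305), though not in UMIs per cell (0.15). For Hspb1 the UMIs per cell had ratios of 0.4885, 1.236 and 0.9894 in runs 1, 2 and 3, above 1 in run 2. The call of Hspa1b held in only 3 of 10 alternatives and was lost without run 1 (adjusted p = 0.0847) or run 3 (adjusted p = 0.124). The call of Hspb1 held in 6 of 10 and was lost without the run block (adjusted p = 0.158), as was that of Hspa1b (adjusted p = 0.429). Hspa1a (0.12 ± 0.06, adjusted p = 0.126) and Dnajb1 (-0.38 ± 0.18, adjusted p = 0.101) were not called, and Dnajb1 was called lower without run 1 (-0.66, adjusted p = 0.00375). The microglia list summed to 6.98, 3.27 and 1.25 CPM in cells of the table and 343, 105 and 31.1 in absent ones, and its part in these differences was not tested. Class and depth differed too. Of the cells the authors kept, 37.096% were Igfbp2-high and 31.485% cycling, against 13.511% and 12.024% of absent ones. Median depth was 11708 against 8933 UMIs. In the comparisons of all cells, the 7 called members went the same way with Igfbp2 and with cycling. Within Igfbp2-high cells Cryab (-0.86) and Hsph1 (-0.13, not called) went the other way with cycling, and the rest did not. How far class and depth account for the differences with the processed table over all cells was not tested. Igfbp2-low non-cycling cells are taken alone below.

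Among Igfbp2-low non-cycling cells alone, 6840 in the table and 7928 absent, 2 members were called where the test called 28.1% of 13992 genes (14.8% higher, 13.3% lower), 1 in each direction. Dnajb1 was at 96.9, 225 and 457 CPM in cells of the table and 141, 395 and 960 in absent ones, lower in 3 of 3 runs although the ranges overlapped (log2 difference -0.75 ± 0.10, edgeR, adjusted p = 0.00499). Without run 3 this was -0.63 (adjusted p = 0.0532), and without the run block it was not called (-0.89, adjusted p = 0.535). Hspa8 was at 1302, 1233 and 1219 against 1094, 1043 and 1141 CPM, without overlap (0.25 ± 0.05, adjusted p = 0.0134). Its call held in 7 of 12 alternatives and was lost without run 1 (adjusted p = 0.106), without run 3 (adjusted p = 0.0559) and without the run block (adjusted p = 0.132). Cryab was at 0.13 (adjusted p = 0.0575) and was not called. The immediate early genes summed to 7383, 8360 and 12618 CPM in these cells of the table and 10051, 13486 and 21485 in absent ones, and their part in the Dnajb1 difference was not tested. Median depth also differed, at 9782 against 8840 UMIs.

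**Figure D5:**
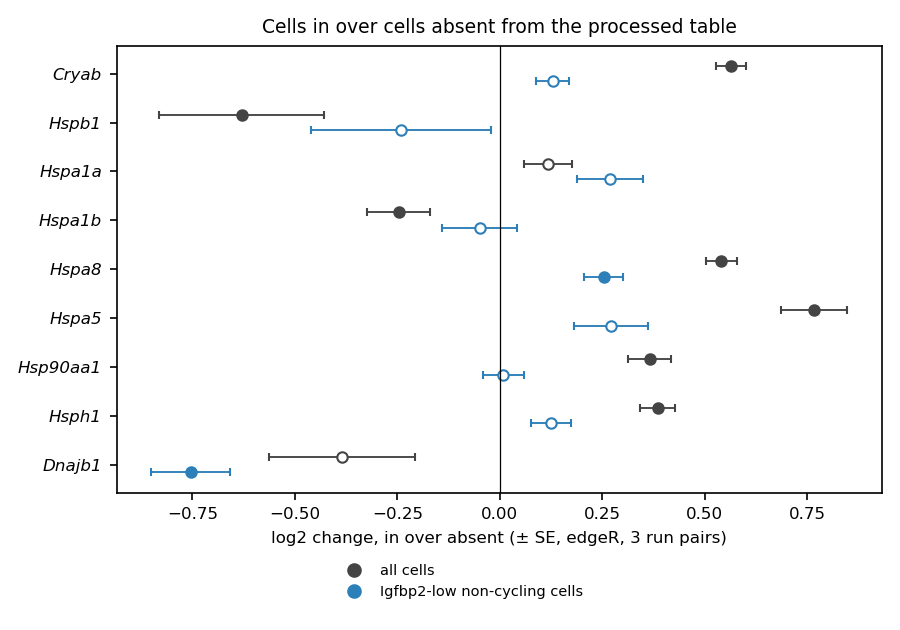
Log2 difference (± SE, 3 runs) of each gene between cells in and absent from the processed table, over all cells and over Igfbp2-low non-cycling cells. Filled points have an edgeR adjusted p under 0.05. Cryab goes from 0.56 to 0.13 and Hspa5 from 0.77 to 0.27, while Dnajb1 goes from -0.38 to -0.75.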

How the data were processed

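The authors made counts of UMIs per gene and cell with Cell Ranger on mm10 and processed cells with Seurat 2.3.4, per the submitters' processing notes. Order, filters and annotation are not given in the sources used here. The deposited count table is the base of every value. The authors' processed table holds natural log values, ln(1 + 10000 × count / cell total) within 5.00e-07 of the counts, and was used only for which cells it lists. Cells under 500 genes or over 20% mitochondrial counts were left out (23 cells). Counts were summed per class and run. They were tested with edgeR 4.0.16 (R 4.3.3, filterByExpr, TMM, glmQLFit and glmQLFTest, run as a block, two-sided, Benjamini-Hochberg over all genes tested, threshold 0.05), checked on simulated counts. Genes that set a class (Igfbp2, Top2a, Mki67, Cdk1 and Ccnb1) were left out after scaling. The same run supplies both classes, so classes are paired by library. The SE is the log2 difference divided by the square root of F. Alternatives were DESeq2 1.42.0, no block, no filter, UMIs per cell, each run left out, other class limits and other marker cells set aside. Members and lists were chosen with earlier results of these data known. Named genes are all 9 members, per list up to 4 called genes of highest mean CPM, and per member the 3 most correlated genes. Hspb2, Hspb6, Hspb8, Ddit3, Xbp1 and Crygs were named after their values were seen. No doublet caller was run.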

Additional observations from a re-analysis of the deposited data

Results flagged for a closer look

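The change with cycling differed between Igfbp2-high and Igfbp2-low cells for 2 members, by a test of the difference itself. For Cryab the interaction was -0.6805 on the log2 scale (edgeR, adjusted p = 0.00351): Cryab was lower in cycling than in non-cycling Igfbp2-high cells in all 3 runs, while the Igfbp2-low classes overlapped. It was not called without run 2 (-0.64, adjusted p = 0.0682) or with cells thinned to 3500 UMIs before cycling was set (-0.50, adjusted p = 0.184). For Hsp90aa1 it was 0.7762 (adjusted p = 0.000422), and it was not called with that thinned rule (0.26, adjusted p = 0.160) or without the 17836 cells that held at least 3 UMIs of another cell type's markers (0.56, adjusted p = 0.0665). The Igfbp2-low cycling class had 93, 105 and 88 cells in the 3 runs.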

How the results depend on the processing

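Of the values for single members under alternatives, 625 kept direction and side of the threshold, 48 lost and 47 gained the call, and 45 turned sign. Cryab, Hspa8, Hspa5, Hsp90aa1 and Hsph1 stayed called the same way in all 12 alternatives of the Igfbp2 comparison. Without the replicate block, genes called went from 12171 to 10319 (Igfbp2), 12277 to 10211 (cycling), 9748 to 6774 (processed table), 9272 to 6982 (Igfbp2 in non-cycling cells), 7876 to 5426 (cycling in Igfbp2-high cells), 3938 to 593 (processed table in Igfbp2-low non-cycling cells, called quiet cells here) and 2154 to 751 (interaction). Members called went from 8, 8, 7, 6, 6, 2 and 2 to 6, 6, 5, 4, 3, 0 and 2. In quiet cells DESeq2 called 2366 genes and 5 members, leaving out 1 run gave 241 to 4150 genes and 0 to 5 members, UMIs per cell gave 1 member, and the narrow marker rule or leaving out the 4 extreme cells (both added after seeing the data) gave 4 members. For the interaction, leaving out 1 run gave 605 to 1213 genes and 1 to 3 members, the processed table alone 1028 genes, the narrow marker rule 1271 genes, DESeq2 4 members and the thinned cycling rule 0 members. Setting aside the 17836 cells with other markers gave 5504 genes and 4 members (processed table), 5058 genes (cycling in Igfbp2-high cells), 1860 genes and 1 member (quiet cells) and 366 genes and 1 member (interaction).

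Of the sign turns, 18 were in UMIs per cell, where the median of all genes shifts by 0.96 (Igfbp2), 1.02 (cycling), 0.38 (processed table), 0.52 (Igfbp2 in non-cycling cells) and 0.56 (cycling in Igfbp2-high cells) by construction. There the Igfbp2 values were 0.019 for Hspb1, 0.61 for Hspa1a, 0.51 for Hspa1b and 0.90 for Dnajb1, and with cycling 0.61, 0.51 and 0.94 for the last 3. The processed table gave 0.15 for Hspa1b and 0.011 for Dnajb1, Igfbp2 in non-cycling cells 0.36, 0.40, 0.33 and 0.35 for Hspb1, Hspa1a, Hspa1b and Dnajb1, cycling in Igfbp2-high cells 0.28, 0.25 and 0.46 for Hspa1a, Hspa1b and Hsph1, quiet cells -0.011 for Hsp90aa1, and the interaction -0.015 for Hsph1. Among called genes, UMIs per cell moved the share that was higher from 48.887% to 84.707% (Igfbp2), 48.562% to 86.597% (cycling), 51.211% to 80.495% (processed table), 49.321% to 83.27% (Igfbp2 in non-cycling cells), 49.733% to 89.269% (cycling in Igfbp2-high cells), 52.59% to 39.191% (quiet cells) and 54.921% to 23.614% (interaction, 26.226% with DESeq2).

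Leaving out 1 run gave Dnajb1 -0.45 to 0.22 (Igfbp2) and -0.43 to 0.19 (cycling), and in quiet cells Hspb1 -0.60 to 0.021, Hspa1b -0.18 to 0.0016 and Hsp90aa1 -0.053 to 0.034, and Hsph1 -0.027 to 0.17 (interaction). In the processed table alone Dnajb1 was at 0.36 (Igfbp2), 0.23 (cycling) and 0.42 (Igfbp2 in non-cycling cells), cycling in Igfbp2-high cells gave Hspa8 -0.050, Hspa5 -0.026 and Dnajb1 -0.028, and the interaction gave Hspb1 0.28 and Hsph1 -0.028. Without cells of other markers, the processed table gave Hspa1b 0.045 and Hsp90aa1 -0.018, cycling in Igfbp2-high cells Hspa8 -0.066, Hspa5 -0.0044 and Dnajb1 -0.22, quiet cells Hsp90aa1 -0.10, and the interaction Hspb1 0.50, Hsph1 -0.19 and Dnajb1 -0.014. The thinned cycling rule gave Hspa8 -0.034 with cycling in Igfbp2-high cells, Igfbp2 limits of 10 and 0 gave Hsp90aa1 -0.0010 in quiet cells, and the narrow marker rule gave Hsp90aa1 -0.0088 in quiet cells and Hsph1 -0.058 in the interaction. The causes were not tested.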
